A study of Homo sapiens with 2 samples.

Results

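RAB GTPases and the TBC domain proteins named TBC1D were taken as every gene whose symbol in the gene tables has the form RAB or TBC1D followed by a number and an optional subtype letter. The rule found 95 genes of 23352, of which 59 were RABs and 36 were TBC1D genes. RABs are small GTPases that act as switches on membranes: in the GTP-bound state they recruit effectors that move, tether and fuse vesicles, and each compartment of the cell carries its own RABs. Exchange factors, many with a DENN domain, load a RAB with GTP, and many TBC domain proteins end the active state by speeding up GTP hydrolysis. A C-terminal lipid anchor is attached by the RAB escort proteins and the geranylgeranyl transferase, and GDP dissociation inhibitors carry inactive RABs through the cytosol.

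The measurements came from A673, an established human Ewing sarcoma cell line driven by the fusion of EWSR1 to FLI1. One pool of cells carried the hairpin sh813 against RUNX3, a Runt-domain transcription factor, and the other carried a non-target hairpin. Both pools were transduced with lentivirus made in HEK 293T cells, with polybrene at 6 µg/mL, and kept in puromycin at 0.4 µg/mL for 6 days, and poly(A) RNA of each was sequenced as 1 library. With 1 library in each group no difference has a replicate check, no test across libraries was possible, and every interval given here covers counting error only. In a pool, fewer cells with a transcript and less of it per cell cannot be told apart.

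The sample titles and the shRNA characteristics contradict each other for both libraries, so the libraries are named by their titles as the 813 library and the NT library. Taking the characteristic instead turns every direction round. RUNX3 itself had 387 read pairs in the 813 library and 1391 pairs in the NT library, a log2 fold of -1.92 (95% interval -2.09 to -1.76), which goes with the titles. The gene counts came to 23342660 pairs in the 813 library and 24326135 pairs in the NT library. All 7 Ewing sarcoma markers examined were measured in both libraries, and none of the 5 epithelial markers reached 1 CPM, the count of pairs relative to the effective library size. The log2 folds of the Ewing sarcoma markers differed: PAX7 -2.45, NKX2-2 -1.43, NR0B1 -1.11, STEAP1 -0.83, NPY1R -0.11, CD99 0.08 and CCND1 0.62. The endothelial markers summed to 3.56 CPM in the 813 library and 1.68 CPM in the NT library. Most of that gap was KDR, at 2.13 CPM in the 813 library and 0.215 CPM in the NT library. PECAM1 was also higher in the 813 library, while VWF and CDH5 were lower there. The leukocyte markers summed to 2.25 CPM in the 813 library and 2.67 CPM in the NT library. Melanocyte markers summed to 4.21 CPM in the 813 library and 4.05 CPM in the NT library, with MITF, TYR and DCT at 0. The part of these other markers in the results was not tested.

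Of the 95 genes, 71 were measured, meaning that they reached 1 CPM in at least 1 library: 47 RABs and 24 TBC1D genes. Levels are the authors' RPKM, reads scaled to the exon length of the gene and to the reads of the library. Genes of different length can thus be set side by side. The Golgi RAB RAB1B, which acts in transport from the endoplasmic reticulum to the Golgi, stood at the top with 203 RPKM in the 813 library and 226 RPKM in the NT library. RAB34, a Golgi and cilium RAB, followed with 153 RPKM in the 813 library and 151 RPKM in the NT library. RAB7A, the late endosome RAB, had 74.0 RPKM in the 813 library and 55.8 RPKM in the NT library. The top 5 RABs held 62.9% of the summed RAB RPKM in the 813 library and 65.6% in the NT library. A handful of RABs thus made up most of the family's summed RPKM in both. Levels of 10 RPKM or more were reached by 23 of the 95 genes in each library. RAB4B stood at 0 RPKM in both libraries. RAB43 stood at 1.02 RPKM in the 813 library and 0.941 RPKM in the NT library. Both had far more exon reads, given below, so this count, the sums and the ranks understate them.

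**Figure D1:**
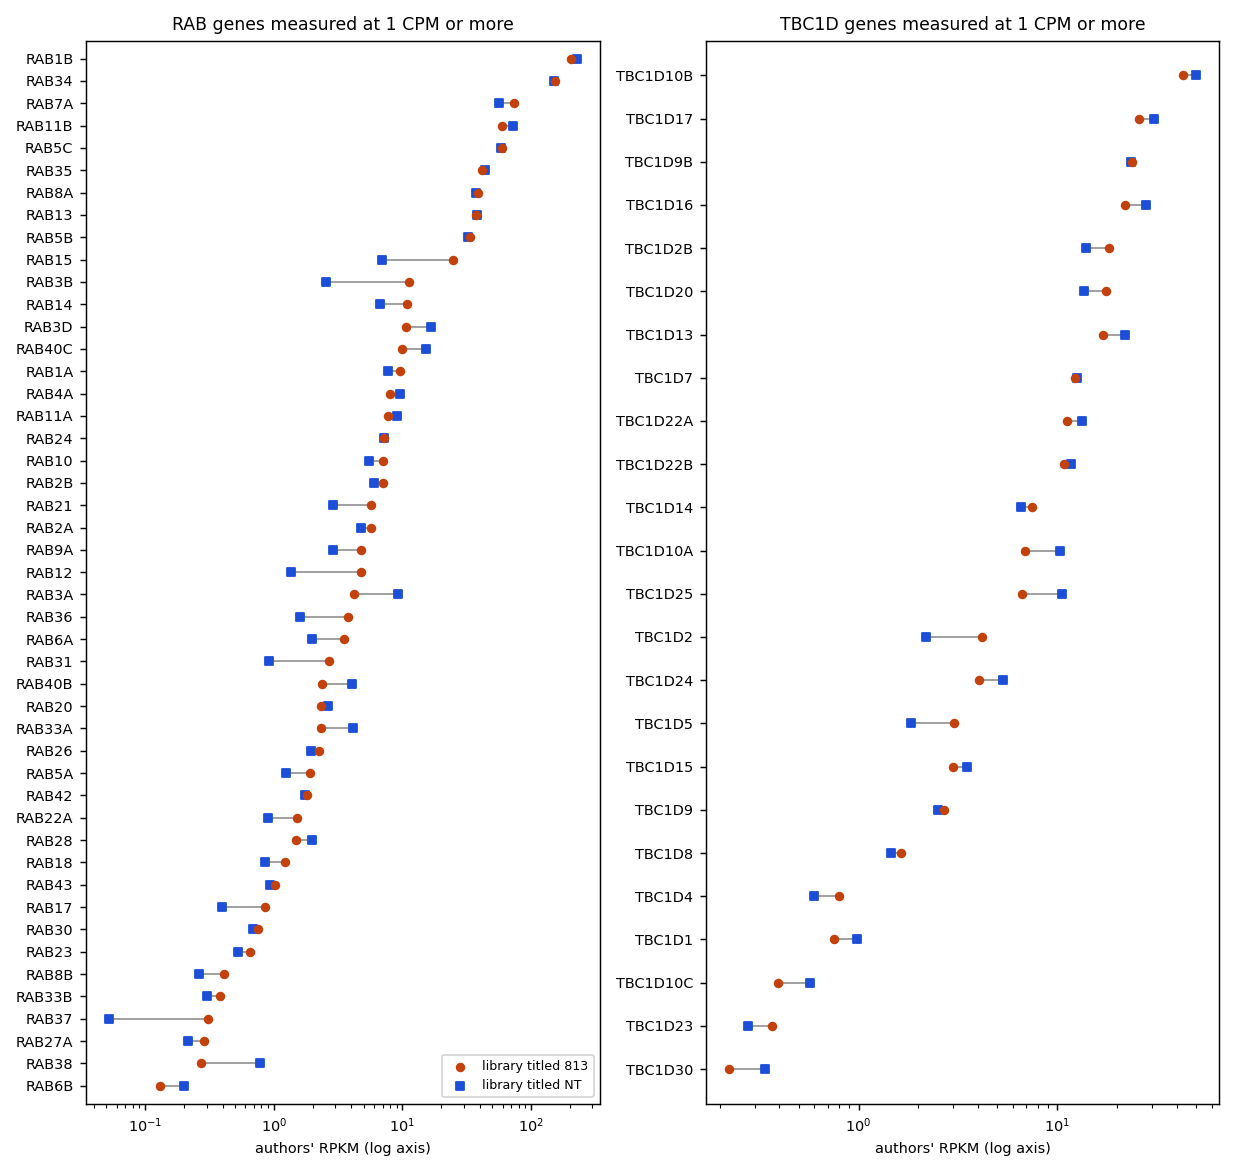
Level of each measured RAB gene (left panel) and TBC1D gene (right panel) in RPKM on a log axis; circles are the 813 library and squares the NT library, 1 library each, joined by a grey line. RAB1B, RAB34 and RAB7A lead the RABs and TBC1D10B leads the TBC1D genes. The long lines include those of RAB15, RAB3B, RAB12, RAB31, RAB37, RAB38, RAB36 and RAB3A.

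The fold of each gene is the 813 library over the NT library on the log2 scale, from pairs scaled to the TMM effective library sizes with 0.5 pairs added. A gene was called higher or lower when it differed 2-fold or more and its interval lay wholly beyond 1.5-fold. Among the 47 measured RABs 6 were called higher and 2 lower, which is 12.8% and 4.26%, beside 8.13% and 3.48% of the 12254 genes measured. The called RABs were RAB37, RAB3B, RAB12, RAB15, RAB31 and RAB36, all higher in the 813 library, and RAB38 and RAB3A, both lower. Not 1 of the 24 measured TBC1D genes was called in either direction. The median log2 fold was 0.06 for the RABs and -0.30 for the TBC1D genes, beside 0.01 for all genes measured. With the trend on GC content and length removed the medians were 0.10 for the RABs and -0.20 for the TBC1D genes. Intervals lay wholly above 0 for 4 of the 24 TBC1D genes and wholly below 0 for 13 of them, or 16.7% and 54.2%, beside 34.4% and 34.7% of all genes measured. With plain library totals the TBC1D median was -0.16 and the RAB median 0.20, beside 0.15 for all genes, and the intervals of 12 TBC1D genes lay wholly below 0.

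**Figure D2:**
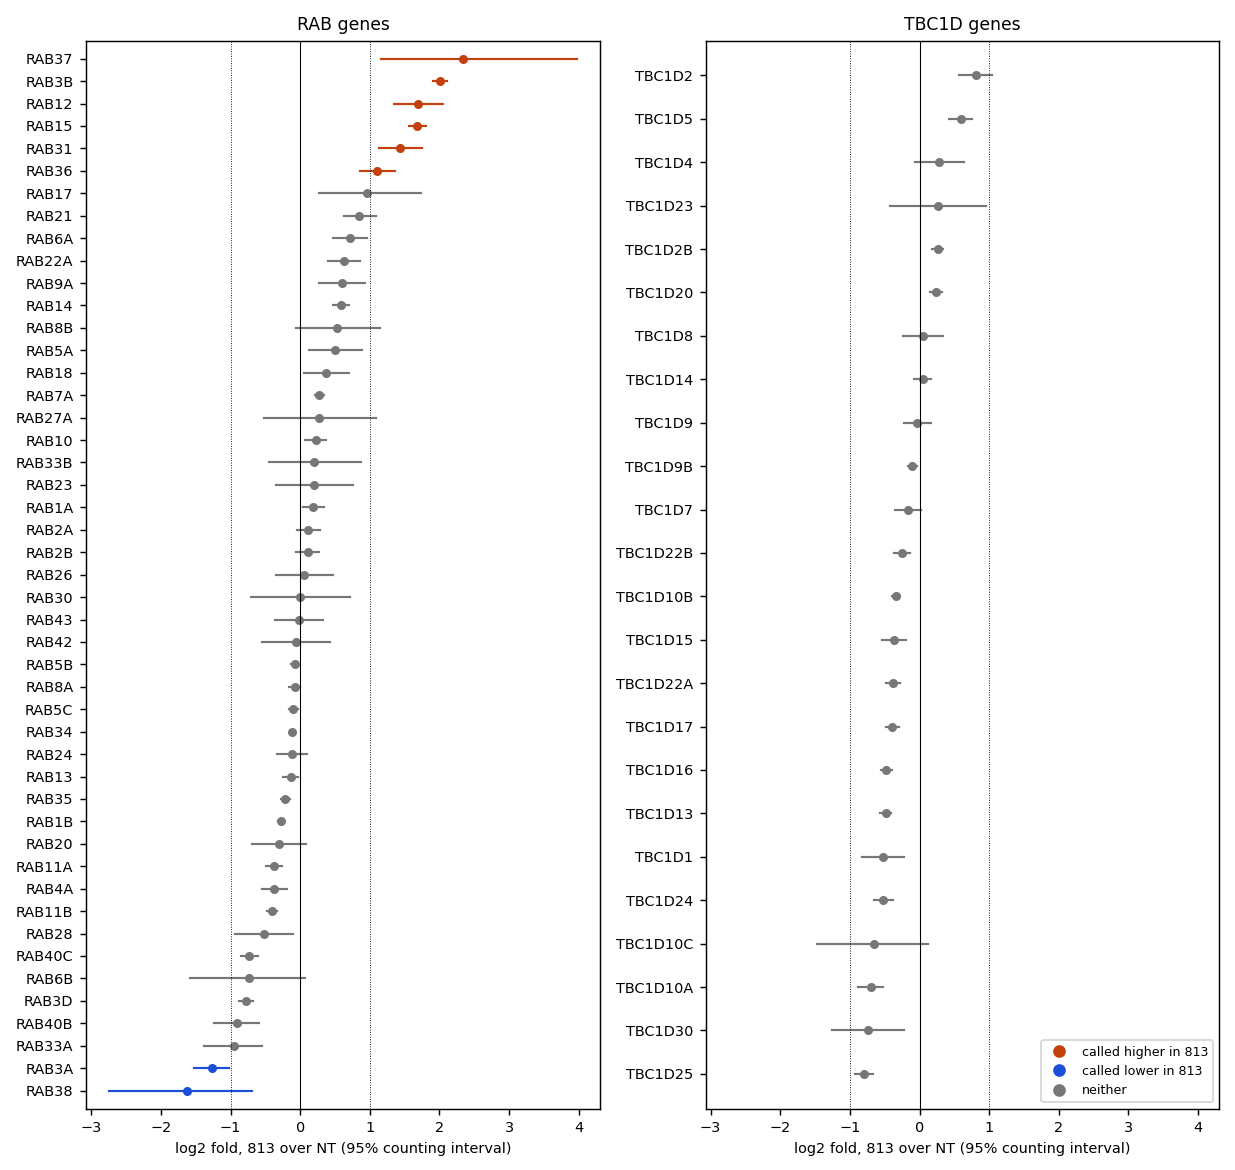
Log2 fold, 813 library over NT library, of the 47 measured RAB genes (left) and 24 measured TBC1D genes (right); points are folds and lines exact 95% counting intervals, and dotted lines mark 2-fold. The TBC1D genes lie between -0.80 and 0.81, inside the dotted lines, while the RABs range from -1.62 to 2.33.

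Base composition ran with the folds here as it did over the transcriptome. The 24 measured RAB and TBC1D genes with a GC content under 45% had a median log2 fold of 0.27, with 20 of 24 above 0, beside a median of 0.33 for all 3368 such genes. The 29 with a GC content of 55% or more had a median of -0.30, with 6 of 29 above 0, beside a median of -0.25 for all 3858 such genes. The 18 genes in between had a median of -0.08, beside 0.08 for all 3796 such genes. The small folds below stand beside these shifts, and the calls with a trend on GC content and length removed are given after the other results.

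Among the 6 measured regulated secretion RABs 2 were called higher and 1 lower, or 33.3% and 16.7%, beside 8.13% and 3.48% of all genes. Of these 3, RAB37 had few pairs, and RAB3A lost its call with the trend on GC content and length removed. RAB3 proteins sit on synaptic and secretory vesicles and act late in exocytosis, and the human family has the paralogs RAB3A, RAB3B, RAB3C and RAB3D. RAB3B (chr1:52373628-52456436 in hg19, the build of all gene and exon positions here) had 4394 pairs in the 813 library and 1034 pairs in the NT library. Its log2 fold was 2.01 (1.91 to 2.11), or 4.03-fold higher in the 813 library. RAB3A (chr19:18307611-18314874), the main RAB3 of neurons, went the other way with 193 pairs in the 813 library and 441 pairs in the NT library. Its log2 fold was -1.27 (-1.52 to -1.02), or 2.40-fold lower in the 813 library. RAB3D (chr19:11432722-11450344), known from exocrine granules, had 1375 pairs in the 813 library and 2235 pairs in the NT library, which is short of 2-fold at a log2 fold of -0.78 (-0.87 to -0.68). RAB3C was at 1 pair in each library.

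The summed RPKM of the RAB3 genes was 26.1 in the 813 library and 28.5 in the NT library, while the paralogs held different shares of it. RAB3B held 43.1% of the RAB3 RPKM in the 813 library and 8.96% in the NT library. RAB3A held 16.2% in the 813 library and 32.7% in the NT library, and RAB3D held 40.6% in the 813 library and 58.2% in the NT library. RPKM divides by the whole exon length of the gene, 12844 bases for RAB3B, and RAB3B has a terminal exon of 12159 bases. All RAB3 genes share a pair of internal exons of 119 and 125 bases, which allow a comparison with no length correction. This comparison was chosen after seeing the data. Over these exons RAB3B had 872 reads in the 813 library and 317 reads in the NT library, and RAB3A had 143 reads in the 813 library and 320 reads in the NT library. RAB3D had 244 reads in the 813 library and 486 reads in the NT library, and RAB3C had 0 reads in the 813 library and 1 read in the NT library. RAB3B thus held 69.3% (65.5 to 72.8, exact Clopper-Pearson on halved reads) of the RAB3 reads in the 813 library and 28.2% (24.5 to 32.1) in the NT library. The share of RAB3A was 11.4% (8.99 to 14.1) in the 813 library and 28.5% (24.8 to 32.4) in the NT library. RAB3D had 19.4% (16.4 to 22.7) in the 813 library and 43.2% (39.1 to 47.4) in the NT library. On both scales RAB3B had the largest share in the 813 library and RAB3D in the NT library. The order of RAB3A and RAB3B in the NT library depended on the scale, RAB3A being above RAB3B by RPKM and within counting error of it over the exons of equal length.

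**Figure D3:**
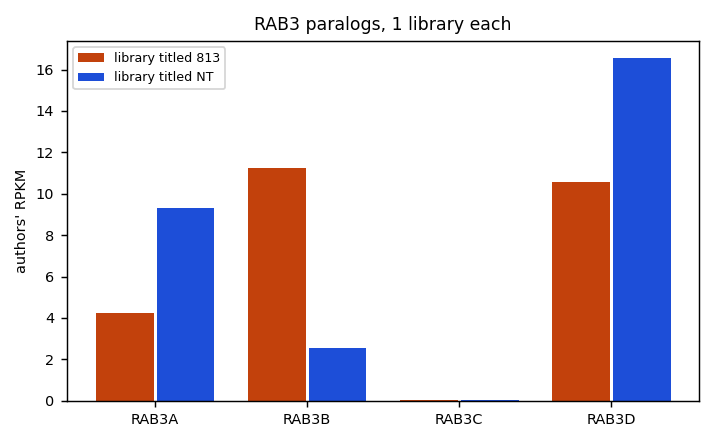
RPKM of the RAB3 paralogs, with the 813 library as the left bar and the NT library as the right bar of each pair, 1 library each and no error bar. RAB3B reached 11.2 RPKM in the 813 library against 2.55 in the NT library, while RAB3A and RAB3D were lower in the 813 library and RAB3C was near 0 in both.

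The promoters of these paralogs are shown with that of RAB31, since they are the called members with an entry in the RefSeq promoter table, plus RAB3D as a further RAB3 paralog. Each runs 5′ to 3′ from 250 bases before to 50 bases after the start (GRCh38.p14): RAB3B at chr1:51990651-51990950 on the minus strand, RAB3A at chr19:18203993-18204292 on the minus strand, RAB3D at chr19:11339608-11339907 on the minus strand and RAB31 at chr18:9708051-9708350 on the plus strand. Capitals mark a match to a searched motif, searched on both strands: the RUNX core TGTGGT or TGCGGT, the E-box CACGTG, or the GGAA repeat GGAAGGAA, the kind of repeat that EWS/FLI1 is known to bind.
RAB3B: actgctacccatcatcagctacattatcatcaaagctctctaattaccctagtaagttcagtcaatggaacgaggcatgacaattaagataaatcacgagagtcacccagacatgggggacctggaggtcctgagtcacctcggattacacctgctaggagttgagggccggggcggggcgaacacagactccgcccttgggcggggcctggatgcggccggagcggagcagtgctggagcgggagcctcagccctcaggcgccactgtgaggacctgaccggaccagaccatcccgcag
RAB3A: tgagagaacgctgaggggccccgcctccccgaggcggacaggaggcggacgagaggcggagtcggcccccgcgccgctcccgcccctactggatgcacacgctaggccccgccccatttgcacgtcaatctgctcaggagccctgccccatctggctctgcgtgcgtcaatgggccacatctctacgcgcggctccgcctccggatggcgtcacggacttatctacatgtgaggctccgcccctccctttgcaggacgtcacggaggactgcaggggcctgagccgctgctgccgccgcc
RAB3D: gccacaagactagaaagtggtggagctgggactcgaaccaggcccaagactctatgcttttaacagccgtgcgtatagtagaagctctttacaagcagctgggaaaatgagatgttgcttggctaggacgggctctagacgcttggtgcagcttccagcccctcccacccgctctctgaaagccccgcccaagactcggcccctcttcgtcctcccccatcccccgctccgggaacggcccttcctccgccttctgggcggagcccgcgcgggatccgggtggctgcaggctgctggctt
RAB31: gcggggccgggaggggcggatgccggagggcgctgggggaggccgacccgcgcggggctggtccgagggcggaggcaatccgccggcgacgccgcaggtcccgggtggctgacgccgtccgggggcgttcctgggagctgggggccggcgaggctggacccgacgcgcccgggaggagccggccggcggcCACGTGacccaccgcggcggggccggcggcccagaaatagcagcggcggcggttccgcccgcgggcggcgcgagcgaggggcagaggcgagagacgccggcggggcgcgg
The only match was a CACGTG 60 bases before the start of RAB31, and none of the 4 windows held either RUNX core. Either RUNX core was found in 20.5% of the 83 promoters of 54 measured RAB and TBC1D genes, and in 19.6% of all 35116 promoters. CACGTG was found in 13.3% of the promoters of the measured RAB and TBC1D genes and in 7.26% of all promoters. GGAAGGAA was found in 2.41% of the promoters of these genes and in 3.67% of all promoters. The set of all promoters also holds those of genes that were not measured. These shares were not compared with the promoters of measured genes alone. The windows also differ in composition: RAB31 is 82.7% G and C with 52 CpG sites, RAB3A 69.7% with 30, RAB3D 62.0% with 18 and RAB3B 58.7% with 15.

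RAB37 (chr17:72667256-72743474), known from secretory granules of mast cells, had few counts, with 34 pairs in the 813 library and 6 pairs in the NT library. Its log2 fold of 2.33 (1.16 to 3.97) was the highest of the measured members and also had the widest interval among the 8 called ones. The other secretory RABs were not called. RAB26, a vesicle RAB, had 110 pairs in the 813 library and 100 pairs in the NT library, and RAB27A, which docks secretory organelles at the plasma membrane, had 32 pairs in the 813 library and 25 pairs in the NT library. RAB27B had 0 pairs in both, which allows at most 0.123 CPM in the 813 library and 0.129 CPM in the NT library.

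Recycling and polarized delivery held 8 measured RABs with 1 called higher, or 12.5%, beside 8.13% of all genes. None was called lower, beside 3.48% of all genes. RAB15 (chr14:65412532-65438875), which acts in endocytic recycling, had 2533 pairs in the 813 library and 748 pairs in the NT library. That is 24.6 RPKM against 6.99 RPKM, and a log2 fold of 1.68 (1.57 to 1.80). In the 813 library RAB15 ranked among the abundant RABs, with a level above those of RAB3B and RAB14. The other 7 measured recycling RABs lay between -0.41 and 0.53. RAB11B, a recycling endosome RAB and the most abundant of the group by RPKM, was lowest among them with 2963 pairs in the 813 library and 3724 pairs in the NT library, a log2 fold of -0.41 (-0.48 to -0.34). Its paralog RAB11A was alike, with 1151 pairs in the 813 library and 1412 pairs in the NT library and a log2 fold of -0.37 (-0.48 to -0.26). RAB25, the epithelial member of the RAB11 family, had 8 pairs in the 813 library and 11 pairs in the NT library and was not measured.

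Early endosome RABs included RAB31 and had the highest group median, with no trend on GC content and length removed. RAB31 (chr18:9708228-9862553), which acts between the trans-Golgi and endosomes, had 328 pairs in the 813 library and 115 pairs in the NT library, a log2 fold of 1.43 (1.13 to 1.76). RAB22A, its closest relative, was not called with 402 pairs in the 813 library and 247 pairs in the NT library and a log2 fold of 0.63 (0.39 to 0.86). RAB17, an epithelial RAB, lay just under 2-fold at 0.97 (0.27 to 1.73) on 52 pairs in the 813 library and 25 pairs in the NT library. RAB21, which moves integrins through endosomes, had 457 pairs in the 813 library and 240 pairs in the NT library and a log2 fold of 0.85 (0.63 to 1.09). The median of the 10 measured early endosome RABs was 0.54, beside 0.01 for all genes. Their median GC content was 45.4%, and the median fold was 0.33 for all genes under 45% and 0.08 for those from 45 to 55%. With the trend on GC content and length removed, this group no longer had the highest median. Its median was then no higher than RAB5A, at 0.20. The middle value of the late endosome and lysosome group was then RAB24, at 0.31. Whether base composition sets the rank was not tested. The RAB5 paralogs, which define the early endosome, differed among themselves. RAB5C had 3696 pairs in the 813 library and 3749 pairs in the NT library, a log2 fold of -0.10 (-0.16 to -0.03). RAB5B had 5519 pairs in the 813 library and 5534 pairs in the NT library, a log2 fold of -0.08 (-0.13 to -0.03). The folds of RAB5B and RAB5C are above 0 with plain library totals. RAB5A, at 148 pairs in the 813 library and 99 pairs in the NT library, had a log2 fold of 0.50 (0.13 to 0.89), near the group median. It made up 2.02% of the RAB5 RPKM in the 813 library and 1.34% in the NT library. RAB4A, of the rapid recycling route, was the lowest of the 10 measured at -0.37 (-0.55 to -0.19). It had 452 pairs in the 813 library and 555 pairs in the NT library. RAB4B, with 0 pairs in both libraries, was not measured and is not in the group median. By its exon reads, given below, RAB4B lay at -0.66.

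On the route to late endosomes and lysosomes, RAB12 (chr18:8609443-8639380), which steers receptors from recycling endosomes to degradation, was called higher. It had 310 pairs in the 813 library and 91 pairs in the NT library, a log2 fold of 1.69 (1.35 to 2.05). RAB7A differed far less, at 0.28 (0.22 to 0.34) on 5024 pairs in the 813 library and 3934 pairs in the NT library. RAB9A, which returns mannose 6-phosphate receptors to the Golgi, had 198 pairs in the 813 library and 124 pairs in the NT library and a log2 fold of 0.60 (0.27 to 0.94). RAB24, linked to autophagy, was the lowest of the group at -0.12 (-0.34 to 0.10), with 352 pairs in the 813 library and 363 pairs in the NT library, and its transcript shares 51.2% of its sequence with that of MXD3.

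In the early secretory pathway and Golgi 13 RABs were measured and 1 was called higher, or 7.69%, beside 8.13% of all genes. None was called lower, beside 3.48% of all genes. RAB36 (chr22:23487513-23506531), a Golgi RAB and the closest relative of RAB34, had 442 pairs in the 813 library and 194 pairs in the NT library, a log2 fold of 1.11 (0.87 to 1.36). RAB34 itself, with 8916 pairs in the 813 library and 9133 pairs in the NT library, had a log2 fold of -0.11 (-0.15 to -0.07). RAB33A, a Golgi and vesicle RAB of brain and immune cells, was lowest and lay just short of 2-fold at -0.96 (-1.38 to -0.55), on 78 pairs in the 813 library and 144 pairs in the NT library. RAB1B had 12085 pairs in the 813 library and 13937 pairs in the NT library, a log2 fold of -0.28 (-0.32 to -0.25), and made up 95.5% of the RAB1 RPKM in the 813 library and 96.7% in the NT library. RAB6A, which acts in retrograde Golgi transport, had 383 pairs in the 813 library and 221 pairs in the NT library and a log2 fold of 0.72 (0.48 to 0.96).

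Of the RABs of melanosomes and related organelles, RAB38 (chr11:87846415-87908635) was called lower, on small counts. It had 12 pairs in the 813 library and 36 pairs in the NT library, a log2 fold of -1.62 (-2.74 to -0.68). RAB32, with which it shares its role in melanosome formation, had 22 pairs in the 813 library and 17 pairs in the NT library, under 1 CPM in both. RAB38 was called lower with TMM scaling but not with plain library totals or with the authors' RPKM.

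The remaining RABs held no called member. RAB40B, one of the SOCS-box RABs that work with a ubiquitin ligase, came near the limit at -0.91 (-1.24 to -0.59), with 127 pairs in the 813 library and 227 pairs in the NT library. RAB40C, the most abundant of them, had 892 pairs in the 813 library and 1402 pairs in the NT library and a log2 fold of -0.73 (-0.85 to -0.61). RAB23, a ciliary RAB that restrains Hedgehog signalling, was highest of this group at 0.20 (-0.35 to 0.76), on 63 pairs in the 813 library and 52 pairs in the NT library.

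Among the TBC1D genes, many of which encode RAB GTPase-activating proteins, 16 of the 24 measured lay within 0.50 of 0 on the log2 scale. So did 25 of the 47 RABs. The share of all genes within this limit was not counted, so these counts do not show whether either family was unusually even. The most abundant was TBC1D10B, which acts on RAB35 and other RABs, with 43.1 RPKM in the 813 library and 49.97 RPKM in the NT library. On 4307 pairs in the 813 library and 5188 pairs in the NT library its log2 fold was -0.34 (-0.40 to -0.29). TBC1D25, an autophagy protein that acts on RAB33B, was lowest at -0.80 (-0.93 to -0.67), with 775 pairs in the 813 library and 1277 pairs in the NT library. TBC1D2, also called Armus, which inactivates RAB7, was highest at 0.81 (0.57 to 1.04), with 424 pairs in the 813 library and 230 pairs in the NT library. The 14 measured TBC1D genes of endosomes, lysosomes and autophagy had a median of -0.38, with 5 above 0. TBC1D5, which restrains RAB7 on retromer endosomes, was among those above 0 at 0.59 (0.43 to 0.76), on 778 pairs in the 813 library and 490 pairs in the NT library.

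The TBC1D genes of insulin and TOR signalling lay between -0.52 and 0.28. TBC1D4, also called AS160, which holds back GLUT4 vesicles until insulin signals, had 154 pairs in the 813 library and 120 pairs in the NT library and a log2 fold of 0.28 (-0.07 to 0.64). Its paralog TBC1D1 had 158 pairs in the 813 library and 215 pairs in the NT library and a log2 fold of -0.52 (-0.83 to -0.22). TBC1D7, the third subunit of the TSC complex, was the most abundant of these at 12.3 RPKM in the 813 library and 12.6 RPKM in the NT library. In the early secretory and ciliary group, TBC1D20, which inactivates RAB1, was highest in both level and fold with 2373 pairs in the 813 library and 1920 pairs in the NT library, a log2 fold of 0.23 (0.14 to 0.32). TBC1D30, a GAP of the ciliary RAB8 pathway, was lowest at -0.73 (-1.26 to -0.23), on 53 pairs in the 813 library and 84 pairs in the NT library. The TBC1D8 and TBC1D9 genes were near 0, from TBC1D9B at -0.10 (-0.17 to -0.04), the most abundant, to TBC1D8 at 0.05 (-0.24 to 0.34).

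The 24 genes that were not measured comprised 12 RABs and 12 TBC1D genes. TBC1D12, which acts on recycling endosomes, had 11 pairs in the 813 library and 0 pairs in the NT library. Set against a floor of 3 pairs in the NT library, the 11 pairs were 3.48-fold higher, at a level under 1 CPM. The exact interval of TBC1D12 began lower, at a log2 fold of 1.25, and had no upper end. RAB41, a Golgi RAB, had 18 pairs in the 813 library and 6 pairs in the NT library, also under 1 CPM. Another 12 members stood at 0 pairs in both libraries: RAB4B, RAB6C, RAB19, RAB27B, RAB39B, TBC1D26, TBC1D29 and the 5 listed members of the hominoid TBC1D3 family.

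For some of these the 0 did not hold in the exon tables, which list reads for each exon of each gene. RAB4B, an early endosome RAB, had 0 pairs in both gene tables but 867 exon reads in the 813 library and 1300 exon reads in the NT library, a log2 fold of -0.66 (-0.84 to -0.48). Its exons overlap the readthrough genes MIA-RAB4B and RAB4B-EGLN2. RAB43, a Golgi RAB that overlaps the readthrough gene ISY1-RAB43, had 145 pairs in the 813 library and 139 pairs in the NT library but 2971 exon reads in the 813 library and 3124 exon reads in the NT library. It thus had 10.2 exon reads per gene read in the 813 library and 11.2 in the NT library, where the median gene had 1.16 in each. By the exon reads RAB43 had a log2 fold of -0.15 (-0.25 to -0.04), so that neither source called it, but its RPKM level in the gene tables rests on a small part of its exon reads. TBC1D14, an autophagy protein, had 2.38 exon reads per gene read in the 813 library and 2.30 in the NT library. RAB6C, a primate-specific copy of RAB6A whose transcript shares 99.4% of its sequence with RAB6D, had 0 pairs but 68 exon reads in the 813 library and 33 exon reads in the NT library. The TBC1D3 genes share 79.9% or more of their transcripts with near-identical copies, and at most 4 exon reads were listed for any of them, so their values are uncertain.

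**Figure D4:**
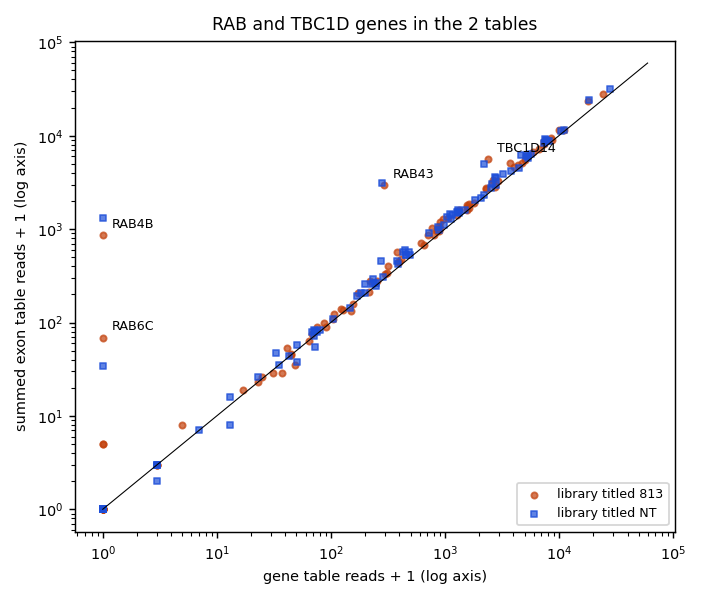
Summed exon reads of the 95 RAB and TBC1D genes against their gene table reads (2 times the pairs, 1 added), both on log axes, with circles for the 813 library and squares for the NT library; the line marks equality. RAB4B and RAB6C sit at 0 gene reads with exon reads above, and RAB43 lies about 10-fold above the line.

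The exons of the called RABs showed where in each gene the difference lay. Tested exons ran from 1.58 to 1.98 for RAB15 and from 1.15 to 2.12 for RAB12, and RAB3A was below 0 at all 5 exons. In these genes the longest exon and the others had overlapping intervals, and in RAB3B they did not. Its terminal exon of 12159 bases (chr1:52373628-52385786) had 7504 reads in the 813 library and 1530 reads in the NT library, a log2 fold of 2.22 (2.11 to 2.33). All its other exons together had 1497 reads in the 813 library and 604 reads in the NT library, a log2 fold of 1.23 (1.04 to 1.43), still past the limits for a call. Its first exon (chr1:52456224-52456436) had 170 reads in the 813 library and 99 reads in the NT library and a log2 fold of 0.70 (0.18 to 1.24).

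RAB31 had a like pattern on fewer reads. Its last exon (chr18:9859225-9862553) had 524 reads in the 813 library and 159 reads in the NT library, a log2 fold of 1.64 (1.28 to 2.03). Its other exons had 153 reads in the 813 library and 98 reads in the NT library, a log2 fold of 0.56 (0.03 to 1.12), so the call of RAB31 rested on its last exon. RAB36 without its longest exon was at 0.97 (0.56 to 1.40), just short of 2-fold, and was then not called. RAB37 had 59 reads in the 813 library and 8 reads in the NT library in its longest exon, and 15 reads in the 813 library and 7 reads in the NT library in all others. Without each gene's longest exon, a setting chosen after seeing the data, 3 RABs were called higher, RAB3B, RAB12 and RAB15, and 2 lower, RAB3A and RAB40B, beside 7.01% and 3.64% of all genes so measured. RAB37 and RAB38 then fell under 1 CPM.

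An exon with at least 50 reads was said to depart when it differed 2-fold from the rest of its gene with intervals that did not overlap. Of the 480 tested exons of RAB and TBC1D genes 2 departed, the first exon of RAB3B and the last exon of RAB31, or 0.417% beside 0.423% of 92860 exons of all genes. At a 1.5-fold departure 8 of the 480 departed, or 1.67% beside 0.897% of all exons tested. Among the 58 RAB and TBC1D genes with enough reads in both parts, the longest exon exceeded the others by more than 0.50 in 4, or 6.90% beside 6.71% of 9191 genes.

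**Figure D5:**
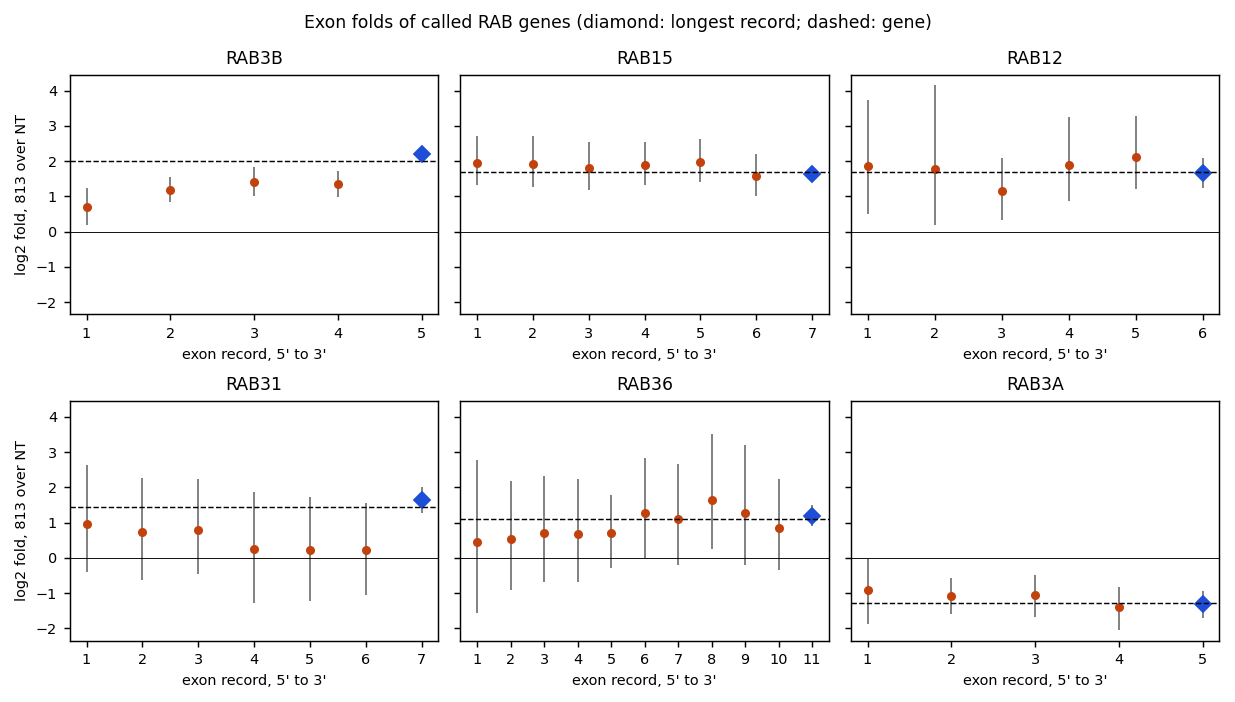
Log2 fold of each exon record, ordered 5′ to 3′, of RAB3B, RAB15, RAB12, RAB31, RAB36 and RAB3A; the diamond is the longest record, vertical lines are exact 95% counting intervals (on halved reads) and the dashed line is the fold of the gene. The diamonds of RAB3B and RAB31 stand above the other exons, whereas in RAB15, RAB12 and RAB3A the diamond lies among them.

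Genes that act on or with RABs were taken from fixed lists of 131 genes in the table, of which 104 were measured, 6 called higher and 6 lower, with a median of 0.03 beside 0.01 for all genes. That is 5.77% in each direction, beside 8.13% higher and 3.48% lower of all genes measured. Among 31 measured exchange factors 3 were called higher and 2 lower, or 9.68% and 6.45%. RIN2, a RAB5 exchange factor, had 236 pairs in the 813 library and 75 pairs in the NT library (log2 fold 1.57, 1.198 to 1.97). GAPVD1, which also acts on RAB5, had 1075 pairs in the 813 library and 433 pairs in the NT library (1.24, 1.07 to 1.40). KIAA1432, the RAB6 exchange factor subunit RIC1, had 297 pairs in the 813 library and 84 pairs in the NT library (1.74, 1.39 to 2.11). The 2 called lower were DENND1C, an exchange factor of RAB35, with 6 pairs in the 813 library and 36 pairs in the NT library (-2.56, -4.20 to -1.40), and RAB3IL1, named for binding RAB3A, with 1073 pairs in the 813 library and 2053 pairs in the NT library (-1.01, -1.12 to -0.90). The RAB3 exchange factor MADD was not called, with 8287 pairs in the 813 library and 8726 pairs in the NT library (-0.15, -0.19 to -0.11).

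Among 48 measured effectors 2 were called higher and 4 lower, or 4.17% and 8.33%, beside 8.13% and 3.48% of all genes. RPH3A, or rabphilin, which binds RAB3A on synaptic vesicles, was the lowest at -2.47 (-2.82 to -2.14), with 88 pairs in the 813 library and 464 pairs in the NT library. SYTL1, a synaptotagmin-like effector of RAB27, had 96 pairs in the 813 library and 251 pairs in the NT library (-1.46, -1.82 to -1.12). EEA1, the early endosome tether that binds RAB5, had 20 pairs in the 813 library and 49 pairs in the NT library (-1.35, -2.20 to -0.59). RAB11FIP4, a RAB11 effector, had 58 pairs in the 813 library and 122 pairs in the NT library (-1.14, -1.63 to -0.69). The 2 called higher were EXOC6B, an exocyst subunit, with 377 pairs in the 813 library and 130 pairs in the NT library (1.46, 1.17 to 1.76), and MYO5A, the myosin motor of secretory organelles, with 164 pairs in the 813 library and 75 pairs in the NT library (1.05, 0.65 to 1.47). Of the 10 measured TBC proteins with other names RABGAP1 was called higher with 758 pairs in the 813 library and 321 pairs in the NT library (1.16, 0.97 to 1.36), and the 9 measured genes of prenylation and membrane delivery and the 6 measured RAB-like genes held no call. With the trend on GC content and length removed GAPVD1, RABGAP1, MYO5A, SYTL1 and RAB3IL1 were not called, and KIAA1432, which has no GC value, was not run. The lower calls of EEA1, RAB11FIP4 and RAB3IL1 also ended with plain library totals, at -1.21, -1.01 and -0.88, and with the RPKM ratio.

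Of the 8 called RABs, RAB3B, RAB12 and RAB15 were called under each alternative run, and RAB38, RAB3A, RAB31, RAB36 and RAB37 each lost the call or fell under the minimum level in at least 1. With the trend on GC content and length removed RAB3A lay at -0.86 and was not called, while TBC1D2 at 1.06 and RAB21 at 1.05 were called higher. Removing this trend also turned the sign of 17 of the 47 RABs and 3 of the 24 TBC1D genes, among them RAB1B, which lay at 0.10, RAB34 at 0.22 and TBC1D4 at -0.19. With summed exon reads, a source chosen after seeing the data, 6 RABs were called higher and 3 lower, beside 7.85% and 3.41% of all genes so measured, and the added one was RAB33A, lower at -1.02. Plain library totals moved every log2 fold up by 0.14, which turned the sign of 8 RABs and 2 TBC1D genes with folds near 0. Over all 12254 genes measured these totals turned the sign of 1213. Of all calls made with plain totals 81.5% were higher, beside 70.0% with TMM.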

How the data were processed

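Poly(A) RNA of 2 pools of A673 cells was sequenced, 1 library each, after lentiviral transduction and puromycin selection. Groups follow the sample titles. The authors deposited raw counts and RPKM per gene and per exon, per the file headers. Per the submitters' processing notes CASAVA 1.9, TopHat2 2.0.6 and HTSeq were used with hg19, with no role or order given. As the annotation and strand setting are not stated in the sources used here, reads of overlapping genes cannot be told apart.

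All deposited gene counts are even, whereas 36.4% and 35.5% of exon counts are odd in the 813 library and NT, so gene counts were halved to pairs, although the design was written for counts as deposited. Exon reads are printed as deposited and halved for intervals. After 46 repeated entries were dropped, 23352 genes remained. TMM scaling (edgeR 4.0.16 in R 4.3.3) gave factors of 1.05 (813 library) and 0.954 (NT library). Intervals are exact conditional binomial (Clopper-Pearson, scipy 1.17.1) at 95%. PCR copies are not independent molecules, so they cover counting error only. The RPKM values by the authors were used for levels and shares. Exon sums use records that do not overlap. The rules were tested on simulated data. Promoters are from RefSeq (GRCh38.p14), with those on chromosome 8 left out, and 76 of 95 members had a match. The motifs were the fixed strings given with the sequences. Sequence sharing was found with blastn 2.17.0 on GENCODE release 29.

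The members and lists were chosen with earlier results of these data known. Named were the called members, those within 0.1 (log2) of 2-fold, the highest and lowest fold and the highest level of each role group, departing exons, up to 4 called genes per direction of each other list, and RUNX3. Other members named, such as RAB22A, RAB5B, RAB11A and TBC1D5, were chosen after their values were seen. Alternatives were plain totals, RPKM ratios, other scalings, count minimums, call limits and a spline on GC content and length, which explained 16.2% of the variance of the folds.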

Additional observations from a re-analysis of the deposited data

How the results depend on the processing

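No paired analysis was possible because each group has 1 library, and for the same reason no library could be left out. No called gene changed direction. Settings on exon reads and on exons of equal length were chosen after seeing the data. The share of all genes called higher and lower, 8.13% and 3.48%, moves with the setting: 10.8% and 2.46% with plain totals, 10.7% and 2.49% with the RPKM ratio, 19.8% and 11.2% at 1.5-fold, 7.88% and 3.60% at 5 CPM, 4.67% and 1.996% with no filter, 6.09% and 2.504% with the trend removed, and 7.01% and 3.64% without the longest exon. RABs called higher numbered 6, but 12 at 1.5-fold with the interval beyond 1 and 3 without the longest exon. RABs called lower numbered 2, but 1 with plain totals, with the RPKM ratio, with a minimum of 5 CPM and with the GC and length trend removed, and 6 at 1.5-fold. TBC1D genes called higher numbered 0, but 1 with no filter, 1 with the trend removed and 2 at 1.5-fold, and 3 were called lower at 1.5-fold. For the regulator and effector lists, the 6 called higher became 11 with plain totals, 10 with the RPKM ratio, 23 at 1.5-fold, 3 with the trend removed and 10 without the longest exon. Their 6 called lower became 3 with plain totals, 3 with the RPKM ratio and 12 at 1.5-fold. Among these genes RAB3IL1 at -0.59, SYTL1 at -0.98, GAPVD1 at 0.71, RABGAP1 at 0.68 and MYO5A at 0.48 were not called with the trend removed. At a 1.5-fold departure 8 exons of members departed in place of 2 (1.67%, beside 0.897% of all exons). Counted in pairs with no length correction, RAB3B held 73.7% of the RAB3 pairs in the 813 library and 27.9% in the NT library, RAB3A 3.24% in the 813 library and 11.9% in the NT library, and RAB3D 23.1% in the 813 library and 60.2% in the NT library. Over the exons of equal length RAB3B held 69.3% in the 813 library and 28.2% in the NT library, RAB3A 11.4% in the 813 library and 28.5% in the NT library, and RAB3D 19.4% in the 813 library and 43.2% in the NT library. The RAB median of 0.06 was -0.06 without the longest exon, -0.06 with no filter and -0.05 at 5 CPM, and the TBC1D median of -0.30 was -0.20 with the trend removed and -0.08 with no filter. The causes of these changes were not tested, other than that fewer genes pass a stricter minimum. Few pairs limit the folds of RAB37, RAB38, DENND1C and EEA1.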
